A study of Rattus norvegicus with 10 samples.

Results

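Hpca, Hpcal1, Hpcal4, Vsnl1, Ncald and Ncs1 encode neuronal calcium sensors, and their messenger RNA was followed here in the hippocampus of rats 3 months after traumatic brain injury (TBI). They are 6 of the 16610 gene symbols that could be given to the 32041 RNA records of the count table. For each symbol the record with the highest mean count was taken, and each of the 6 symbols had 1 record. The group was selected on results from these same rats: Hpcal1 was included because it was lower in TBI, so its difference between the groups is given as a description, without a test.

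Neuronal calcium sensors are small EF-hand proteins that bind calcium and pass the signal on to other proteins. Most carry a myristoyl group, a fatty acid that in several members is exposed when calcium binds and anchors the protein to membranes. In hippocampal neurons the family is known for shaping excitability and synaptic strength, and hippocalcin, the product of Hpca, is abundant in pyramidal cells.

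Poly-A RNA was sequenced from 10 adult male Sprague-Dawley rats, 5 with TBI and 5 sham operated. Both groups had the same anaesthesia (sodium pentobarbital, chloral hydrate, magnesium sulphate, propylene glycol and absolute ethanol) and a craniectomy over the left parietal lobe with the dura intact. The TBI rats then received a lateral fluid percussion impact of 3.32 atm, a pressure pulse through saline onto the dura, and the sham rats did not. Tissue containing CA3 and the dentate gyrus was taken from the left hippocampus under isoflurane. The labels call the tissue dorsal hippocampus, the rats were chosen among those that survived, and the TBI rats were not monitored by EEG, so which of them had seizures is not known.

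Between 23425817 and 31671838 counts fell on RNA records in each library. Ribosomal RNA took 59.0% of these in sham 4 and 58.5% in sham 5, against 12.5% to 26.2% in the other 8 rats, and no TBI library was so rich in it. CA3 markers summed to 1514 to 2036 CPM (counts scaled to a common library size) per rat and CA1 markers to 37.4 to 376 CPM. Markers of dentate granule cells (Prox1, C1ql2 and Plk5) summed to 48.5 CPM in sham 1, the lowest, and to 78.6 to 198 CPM in the other rats. No tested marker was at 0 in any library.

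Hpcal1, which encodes the visinin-like protein VILIP-3, had the largest difference of the 6 genes. Its level in CPM, scaled to library sizes adjusted by the trimmed mean of M values (TMM), was 40.9 in sham 1, 32.3 in sham 2, 24.6 in sham 3, 33.3 in sham 4 and 23.1 in sham 5. In TBI rats it was 16.3, 23.1, 24.6, 23.1 and 21.6 CPM in TBI 1 to TBI 5. Sham 1, 2 and 4 lay above every TBI rat, while sham 3 and sham 5 lay among them, so the groups overlapped. The mean was 30.8 CPM ± 7.24 (SD, n = 5) in sham and 21.7 CPM ± 3.24 (SD, n = 5) in TBI, 29.5% lower. On the log2 scale the change was -0.51 with a standard error of 0.15. The raw counts behind these levels ran from 369 to 1311, for which counting error alone gives a coefficient of variation of at most 5.21%, against 23.5% between sham rats and 14.9% between TBI rats.

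Leaving out 1 rat at a time gave Hpcal1 changes from -0.60 (without sham 5) to -0.38 (without sham 1) on the log2 scale. Without both sham rats rich in ribosomal RNA the change was -0.58. Scaling by total counts, ribosomal RNA included, gave -0.027 for Hpcal1 and raised the median change of all rows to 0.50, so that Hpcal1 was 0.53 below that median. It was 0.50 below the median of all rows both with TMM and with scaling by total counts outside ribosomal RNA.

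**Figure D1:**
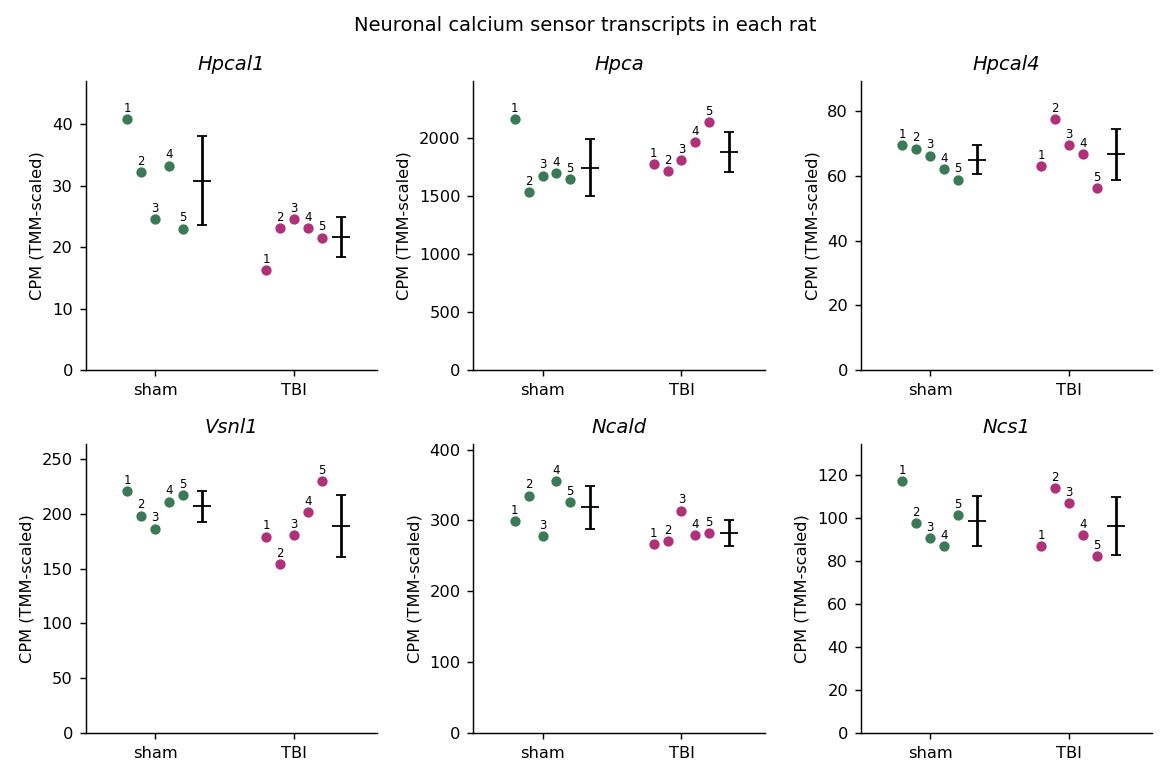
Level of each gene in CPM (vertical axes from 0, TMM-scaled) in the 5 sham and 5 TBI rats, numbered, with the group mean and SD as black bars. For Hpcal1, sham 1, 2 and 4 lie above all TBI rats, and in every panel the groups overlap.

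Hpca, which encodes hippocalcin, a sensor known for its part in the slow afterhyperpolarization, lay slightly higher on average in TBI rats. It was at 2168, 1538, 1677, 1701 and 1645 CPM in sham 1 to 5 and at 1774, 1714, 1810.1, 1969 and 2142 CPM in TBI 1 to 5. Sham 1 was the highest of all 10 rats, and the other sham rats lay below every TBI rat. The log2 change was 0.11 (standard error 0.10, 95% interval -0.10 to 0.32), with a Benjamini-Hochberg adjusted p of 0.835 over all rows from the quasi-likelihood test of edgeR. Without sham 1 the change was 0.19, with an unadjusted p of 0.0342 and an adjusted p of 0.551 in the same test. The change was 0.60 with total count scaling and 0.26 with total counts outside ribosomal RNA.

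Ncald encodes neurocalcin delta, which binds clathrin and other coat proteins. Its level was 299, 335, 278, 355 and 326 CPM in sham 1 to 5 and 266, 271, 314, 279 and 283 CPM in TBI 1 to 5. Sham 2, 4 and 5 lay above every TBI rat, and sham 1 and sham 3 lay among the TBI rats. The mean was 319 CPM ± 30.4 (SD, n = 5) in sham and 283 CPM ± 18.7 (SD, n = 5) in TBI. The log2 change was -0.17 (standard error 0.08, 95% interval -0.345 to -0.000482), with an unadjusted edgeR p of 0.0494 and an adjusted p of 0.633. The unadjusted p stayed under 0.05 without sham 1, sham 3 or TBI 3, and without any other single rat it was 0.0703 to 0.132. The change was -0.10 without both sham rats rich in ribosomal RNA, with an unadjusted edgeR p of 0.315, and it turned to 0.36 with total count scaling, which moved the median of all rows to 0.50.

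Vsnl1 encodes VILIP-1, a sensor that affects the trafficking of guanylyl cyclase and nicotinic receptors and that is measured in body fluids after brain injury. It was at 221, 198, 186, 211 and 217 CPM in the sham rats and at 179, 154, 180.5, 201 and 229 CPM in the TBI rats, in order of number. TBI 2 was the lowest and TBI 5 the highest of all 10, so the TBI rats spanned the sham rats. The log2 change was -0.13 (standard error 0.10, 95% interval -0.33 to 0.07; adjusted p = 0.779, edgeR). It was -0.21 without TBI 5, with an unadjusted p of 0.0298 and an adjusted p of 0.759, and it turned to 0.39 with total count scaling and to 0.03 with scaling by total counts outside ribosomal RNA.

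Hpcal4, which encodes VILIP-2, a modulator of voltage-gated calcium channels, had nearly equal group means. Sham rats were at 69.4, 68.4, 66.2, 62.1 and 58.8 CPM and TBI rats at 63.0, 77.6, 69.6, 66.8 and 56.2 CPM, in order of number. TBI 2 and TBI 3 lay above every sham rat and TBI 5 below every sham rat. The log2 change was 0.03 (standard error 0.09, 95% interval -0.15 to 0.22; adjusted p = 0.951, edgeR). It was 0.51 with total count scaling and 0.18 with total counts outside ribosomal RNA. It turned below 0, the lowest value being -0.04, with the ribosomal RNA share as a covariate, without the sham rats rich in ribosomal RNA, without sham 5 and without TBI 2.

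Ncs1, the most widely conserved sensor of the family and an activator of the phosphatidylinositol kinase Pi4kb, also had close group means. It was at 117, 97.5, 90.6, 87.0 and 101 CPM in the sham rats and at 86.8, 114, 107, 91.9 and 82.2 CPM in the TBI rats, in order of number. The groups overlapped over nearly their whole ranges. The log2 change was -0.04 (standard error 0.10, 95% interval -0.24 to 0.17; adjusted p = 0.960, edgeR), and it was 0.45 with total count scaling and 0.11 with total counts outside ribosomal RNA. The intervals of Hpcal4 and Ncs1 still hold changes of up to 0.22 and down to -0.24, so a p above the threshold does not show that their levels were equal.

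After adjustment over all 22431 rows tested, none of the 5 genes other than Hpcal1 came under 0.05 in the quasi-likelihood test of edgeR. Of all rows, 0% did. None of the 5 came under 0.05 with DESeq2, limma with voom or either exact test of edgeR. These called 3, 0, 0 (robust) and 68 (not robust) of all rows. At an unadjusted p under 0.05, 2 of the 6 were lower (Hpcal1 and Ncald) and 0 were higher, where 7.89% of all rows passed in either direction and 3.00% were lower. Because the choice of Hpcal1 used this contrast, nothing is read from that count, and its adjusted p is not read either. The study's own edgeR comparison listed Hpcal1 as downregulated after TBI. The groups of 5 did not overlap for 0 of the 6 genes, against 0.923% of all rows. The median log2 change was -0.08 over the 6 genes and -0.01 over all rows.

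Counts of 2 genes within a library can be compared without any library scaling. For each Hpcal1 count, the sham rats had 53.0, 47.7, 68.2, 51.0 and 71.3 Hpca counts and the TBI rats had 109, 74.2, 73.5, 85.3 and 99.3, in order of number. All TBI rats lay above all sham rats in this ratio, by a narrow margin between sham 5 and TBI 3. The log2 ratio of Hpcal1 to Hpca was -5.84 ± 0.26 (SD, n = 5) in sham and -6.45 ± 0.25 (SD, n = 5) in TBI, a difference of -0.60. This ratio holds the contrast by which Hpcal1 was chosen and is a description.

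The ratios of Hpcal1 to the other 4 genes were also lower in TBI on average, and in each the groups overlapped. The difference in the log2 ratio was -0.52 against Hpcal4, -0.45 against Ncs1, -0.35 against Vsnl1 and -0.32 against Ncald. Against Ncald, which lay lower in TBI itself, the difference was the smallest of these.

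**Figure D2:**
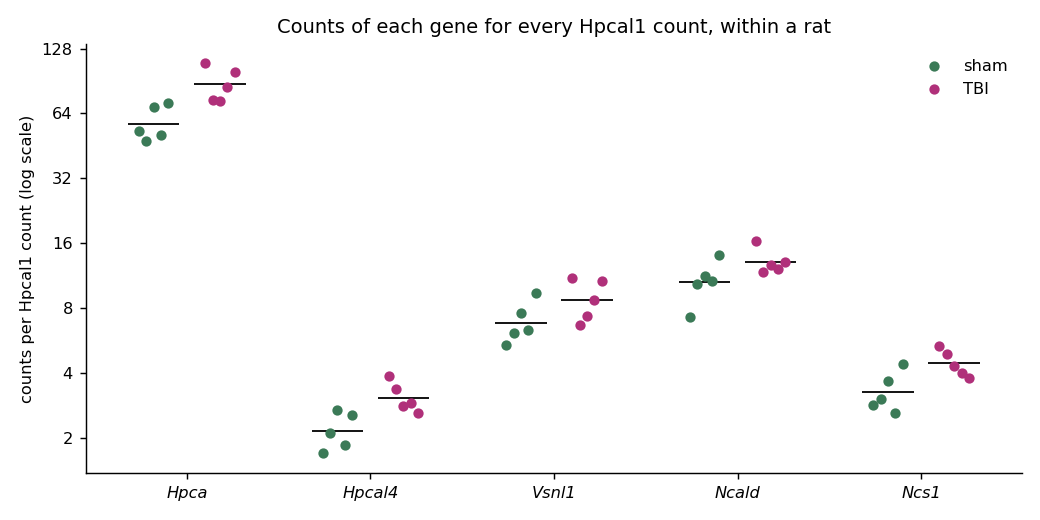
Counts of each gene for every Hpcal1 count in the same rat (vertical log axis), in 5 sham and 5 TBI rats, with the group's geometric mean as a line. For Hpca the sham rats lie at 47.7 to 71.3 and the TBI rats at 73.5 to 109, and for the other 4 genes the groups overlap.

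The 6 genes varied in different ways across the rats. Over the 10 rats, Pearson's r of log2 CPM was 0.73 between Hpcal4 and Ncs1 and -0.73 between Hpcal4 and Vsnl1. With the group means removed, these were 0.75 and -0.76. Hpcal1 went with Ncald at r = 0.61, which was 0.33 with the group means removed, and with Hpca at r = 0.08, which was 0.48 with them removed. These are descriptions over 10 rats that share their libraries and scaling.

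Among 8279 symbols with a mean of at least 5 CPM, the genes whose log2 CPM went most closely with Hpcal1 over the 10 rats were Usp11 (r = 0.96), Crym (r = 0.94), Utp4 (r = 0.94), Tmem132d (r = 0.93) and Gpr83 (r = 0.93). With the group means removed, their r was 0.87 to 0.94. The 5 genes were picked by r over these same 10 rats, so a high r within groups follows in part from the choice. Their own log2 changes ran from -0.46 for Tmem132d to -0.18 for Utp4. Changes below 0 also follow in part from the choice, since r held the group difference by which Hpcal1 was chosen. Ncald stood at place 885 in the order of likeness to Hpcal1.

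The genes most like each other member were listed in the same way. They were Txnrd2, Tmem178a and Gipc1 for Hpca, with r of 0.93, and Neurl4, Colgalt1 and Unc13a for Hpcal4, with r of 0.91 to 0.93. They were Zc3h15, Atp5if1 and Aig1 for Vsnl1, with r of 0.94 to 0.96, and Tmco1, Sike1 and Naa30 for Ncald, with r of 0.92 to 0.93. For Ncs1 they were Fam217b, Usp36 and Nlgn3, with r of 0.90 to 0.95. All these genes were picked by r among 8279 symbols over the same 10 rats, so a high r follows in part from the choice. With so few genes listed for each member, the absence of shared genes cannot show separate groups, and nothing is read from it.

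The wider family has relatives that act on other targets. The Kcnip genes encode auxiliary subunits of A-type potassium channels, and 4 of the 7 relatives listed were tested, since Rcvrn, Guca1a and Guca1b, known from the retina, did not reach the count minimum. At an unadjusted p under 0.05, 0 of the 4 were higher and 0 lower, against 7.89% of all rows. All 4 had a log2 change below 0, from -0.33 for Kcnip1 (adjusted p = 0.778, edgeR) to -0.09 for Kcnip2 (adjusted p = 0.814, edgeR), with a median of -0.13, but with total count scaling all 4 were above 0 and with total counts outside ribosomal RNA Kcnip2 and Kcnip4 were. DESeq2, limma with voom and both exact tests of edgeR also put 0 of the 4 under 0.05. Kcnip3 came under an unadjusted p of 0.05 without sham 5. The Kcnip1 record rested on a mean of 44.7 counts per library. Other records of Kcnip1, with nearly the same mean count, had log2 changes of -0.53, -0.29 and -0.21.

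Of 14 genes for myristoylation or known partners of these sensors, 1 was lower at an unadjusted p under 0.05 and 0 were higher, a share near the 7.89% of all rows that passed in either direction (3.00% lower). It was Drd2, the dopamine D2 receptor that Ncs1 binds, at 1.12 CPM ± 0.20 (SD, n = 5) in sham and 0.77 CPM ± 0.22 (SD, n = 5) in TBI. Its log2 change was -0.52 (standard error 0.23; 0.02 with total count scaling), with an unadjusted edgeR p of 0.0342 and an adjusted p of 0.604. This rested on a mean of 27.1 counts per library, and the unadjusted p rose above 0.05 when sham 1, sham 4, TBI 1, TBI 4 or TBI 5 was left out. Chrna4 came under 0.05 without TBI 2. The myristoyltransferases Nmt1 and Nmt2 had log2 changes of 0.03 (standard error 0.07) and -0.04 (standard error 0.08). The highest change in the list was 0.15 for Npr1, and the median was -0.04.

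Of 13 other EF-hand genes, 1 was lower at an unadjusted p under 0.05 and 0 were higher, again a share near the 7.89% of all rows in either direction (3.00% lower). It was Necab1, a neuronal calcium-binding protein, at 11.7 CPM ± 1.89 (SD, n = 5) in sham and 9.35 CPM ± 1.39 (SD, n = 5) in TBI. Its log2 change was -0.34 (standard error 0.12; 0.09 with total count scaling), with an unadjusted edgeR p of 0.0111 and an adjusted p of 0.511, and the unadjusted p stayed under 0.05 without any single rat. The lowest change was -0.40 for Pvalb, parvalbumin of fast-spiking interneurons (unadjusted p = 0.0919, edgeR). The highest was 0.34 for Scgn, secretagogin, at a mean of 4.9 counts per library (standard error 0.51). The median over the list was -0.08. Without sham 1, Calb1 and Cabp7 also came under 0.05, and without sham 3 Pvalb did.

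**Figure D3:**
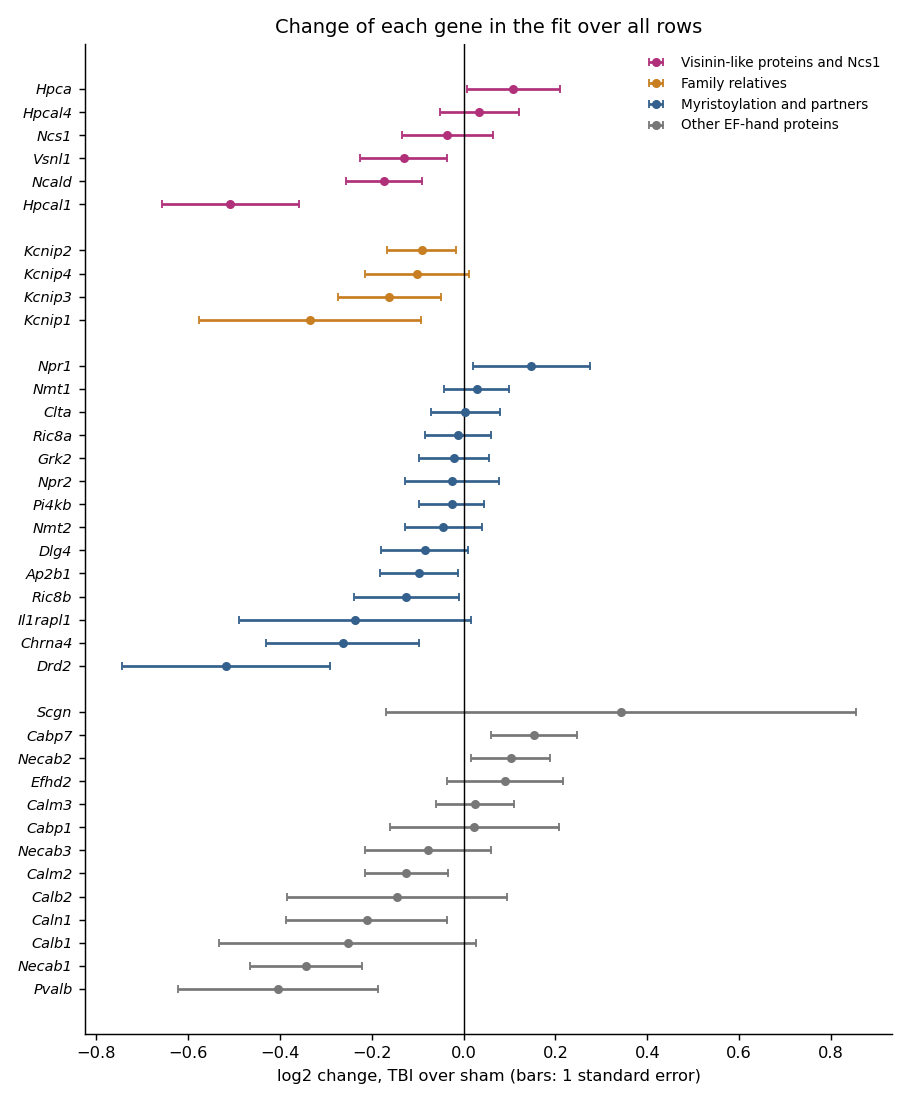
Log2 change in TBI over sham (horizontal axis) with 1 standard error for the 6 sensors and the tested genes of the 3 other lists, 5 rats per group. Hpcal1 lies lowest of the sensors at -0.51 and Hpca highest at 0.11, and most genes lie within 0.2 of 0.

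Some cell type markers also had group differences at an unadjusted p under 0.05. In bulk tissue, fewer cells of a type and less RNA per cell cannot be told apart. Of the 5 markers of GABAergic neurons, 2 were lower in TBI at an unadjusted p under 0.05 (Gad1 and Gad2). Of all rows, 7.89% passed in either direction and 3.00% were lower. The adjusted edgeR p was 0.477 for both genes. The sum of the 5 was 171 to 242 CPM in sham and 125 to 200.4 CPM in TBI. Sham 1, highest in Hpcal1, was also highest in this sum, at 242 CPM. Of the 5 astrocyte markers, 2 were higher (Gfap, adjusted p = 0.514, and Aldh1l1, adjusted p = 0.555, edgeR). The log2 changes of Aqp4, Slc1a2 and Slc1a3 were 0.53, 0.06 and -0.0009. The astrocyte sums were 1408 to 2239 CPM in sham and 1570 to 3042 CPM in TBI. TBI 1, lowest in Hpcal1, was highest in the astrocyte sum, at 3042 CPM, and lowest in the GABAergic sum, at 125 CPM. The sums did not follow Hpcal1 in every rat. Sham 5 and TBI 4 both had 23.1 CPM of Hpcal1. Their GABAergic sums were 210 and 133 CPM and their astrocyte sums 1473 and 2293 CPM.

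Of 3 CA1 markers, 1 was higher in TBI (Wfs1), with sums of 49.6 to 106 CPM in sham and 37.4 to 376 CPM in TBI. The 5 pan-neuronal markers had none past an unadjusted p of 0.05, with sums of 1534 to 1847 CPM in sham and 1451 to 1736 CPM in TBI. The sum of the microglial markers was 102 to 160 CPM in sham and 121 to 179 CPM in TBI, with Aif1 higher. Oligodendrocyte sums were 2099 to 3058 CPM in sham and 2077 to 2800 CPM in TBI, and endothelial sums 57.4 to 75.5 CPM and 63.9 to 75.3 CPM. Choroid plexus sums were 5.85 to 34.1 CPM and 10.7 to 34.5 CPM, with Folr1 higher, and thalamic sums 10.6 to 14.3 CPM and 12.9 to 17.0 CPM, with Prkcd higher. Aif1 was 1 of 5 microglial markers tested, Folr1 1 of 4 of choroid plexus and Prkcd 1 of 3 of thalamus. Of all rows, 7.89% passed an unadjusted p of 0.05 in either direction. The adjusted edgeR p was 0.603 for Wfs1, 0.550 for Aif1, 0.579 for Folr1 and 0.599 for Prkcd. The part of any of these markers in the levels of the 6 sensors was not tested.

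**Figure D4:**
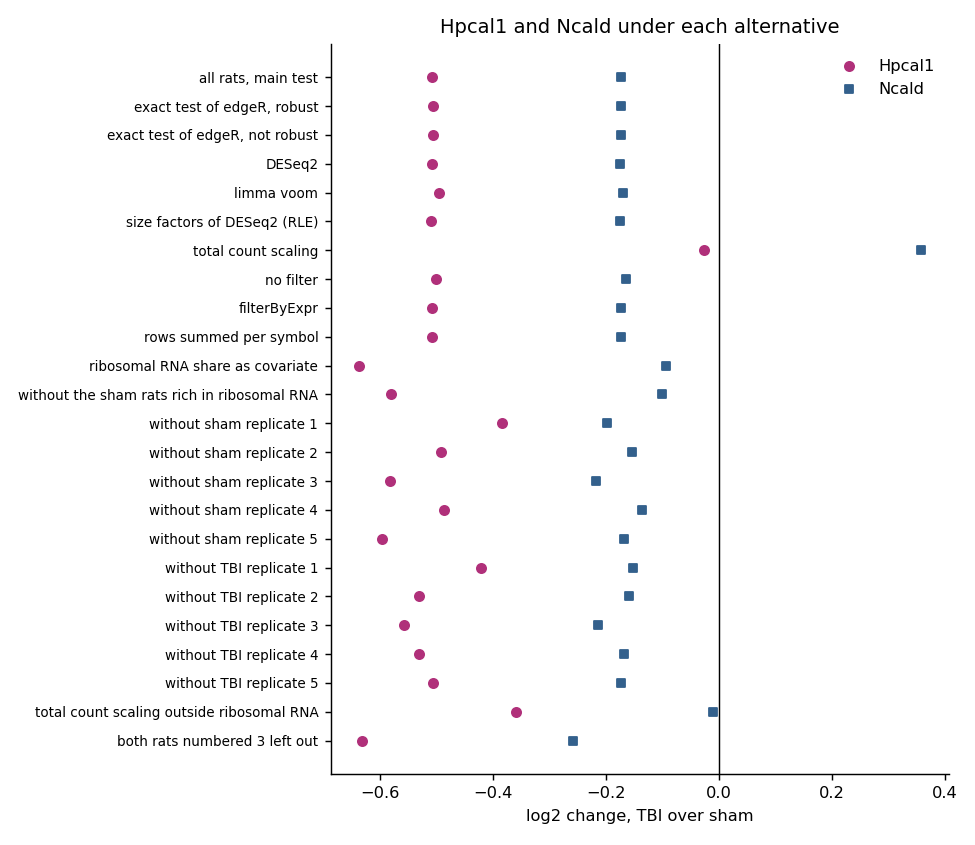
Log2 change in TBI over sham (horizontal axis) of Hpcal1 and Ncald with all rats and under each of the 23 alternatives. Hpcal1 stays below 0 in each, from -0.64 to -0.027, and Ncald is above 0 only with total count scaling, at 0.36.

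The sequences at the gene starts are shown because DNA methylation was profiled alongside these RNA libraries and the sensors differ in how many CpG sites, the substrate of that mark, lie there. Methylation itself was not analysed here. For Hpcal1 in TBI, the study reports an altered methylation that lay in introns. RefSeq promoter windows of the rat assembly GRCr8, from 250 bases before to 50 after the start, were found for 5 of the 6 genes, Ncald being the exception. The window of Hpcal1 (chr6:46206644-46206943, plus strand) and that of Hpca (chr5:146748309-146748608, minus strand) are printed 5′ to 3′ with each CpG in capitals.
Hpcal1: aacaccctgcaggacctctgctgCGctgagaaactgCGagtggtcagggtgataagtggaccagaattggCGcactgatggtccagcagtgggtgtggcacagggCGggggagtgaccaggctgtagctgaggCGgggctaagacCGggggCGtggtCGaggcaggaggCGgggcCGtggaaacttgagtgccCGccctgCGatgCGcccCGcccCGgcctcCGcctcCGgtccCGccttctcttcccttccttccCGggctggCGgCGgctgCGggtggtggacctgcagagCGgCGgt
Hpca: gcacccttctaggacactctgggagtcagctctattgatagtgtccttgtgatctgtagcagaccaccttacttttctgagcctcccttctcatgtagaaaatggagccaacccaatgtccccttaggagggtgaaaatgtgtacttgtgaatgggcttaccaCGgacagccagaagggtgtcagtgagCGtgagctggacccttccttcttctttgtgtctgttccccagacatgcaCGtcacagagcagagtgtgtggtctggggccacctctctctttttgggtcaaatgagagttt

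The Hpcal1 window held 24 CpG sites, more than 82.0% of the 33469 windows of 300 bases, whose median is 7. The Hpca window held 3, with 22.3% of windows holding fewer. The windows of Hpcal4, Vsnl1 and Ncs1 held 22, 19 and 51 CpG sites, and 99.4% of windows held fewer than that of Ncs1. The GC box GGGCGG, searched on both strands and itself holding a CpG, occurred 3 times for Hpcal1, 2 times for Hpcal4, 1 time for Vsnl1 and 0 times for Hpca and Ncs1, while 33.1% of all windows held at least 1. The cAMP response element TGACGTCA, which reads the same on both strands and also holds a CpG, was in none of the 5 windows and in 1.83% of all windows. These matches describe the letters of the windows and say nothing about binding or methylation.

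**Figure D5:**
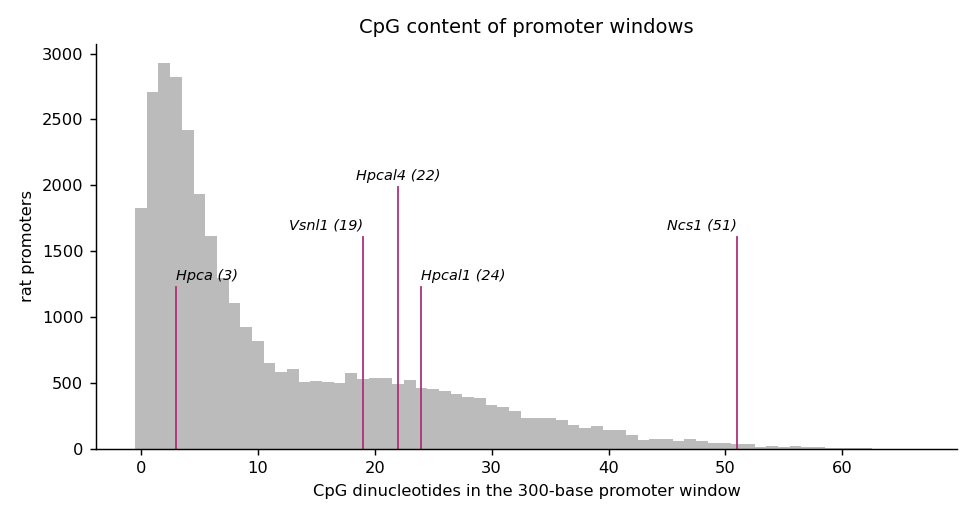
Number of rat promoter windows of 300 bases (vertical axis) by their count of CpG sites (horizontal axis), with the 5 sensors that had a window marked. Hpca lies at 3 and Hpcal1 at 24 CpG sites, on either side of the median of 7.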

How the data were processed

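Per the labels and the study's methods, poly-A RNA was sequenced from 1 end over 36 bases and aligned with BWA to the rat assembly rn4. The authors deposited raw counts per RNA record. The rows carry RefSeq records, while the study's methods name Ensembl transcripts, and strand is not stated for the counting. Reads shared by near-identical or overlapping transcripts are therefore uncertain. The labels give 5 sham rats, the study's account of its mRNA profiling gives 3, and all 5 were used. Counts per library ran from 23425817 to 31671838 on RNA records, which limits the precision by counting error only for the lowest genes.

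Symbols came from a RefSeq table of GRCr8, used for names of 54.2% of records. The 2 rows that name no record were left out (unmapped reads were a median of 22.2%). Rows with a total of at least 44 counts, the 30th percentile, were kept, leaving 22431. Groups were compared with edgeR 4.0.16 (R 4.3.3), quasi-likelihood F test, robust, with TMM scaling and Benjamini-Hochberg adjustment. CPM were computed from the counts. Correlations used log2 CPM with a prior count of 2. Levels were not compared between genes, since transcript lengths were not used here.

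Named genes were the 6 sensors, the genes of 3 other lists under an unadjusted p of 0.05 with each list's extremes, and the genes most correlated with each sensor (5 for Hpcal1, 3 for the others). The myristoyltransferases and the genes that passed only without 1 rat were named after their values were seen. Members, lists and markers were chosen with earlier results of these data known. A few listed genes are not reported here and were left out of their lists. Alternatives were DESeq2 1.42.0, limma 3.58.1 with voom, both exact tests of edgeR, other scalings and filters, a ribosomal RNA covariate and leaving out rats. Over the 45 pairs of libraries the chi-square per degree of freedom was at least 8.99, so no library was a copy of another. Figures were drawn with matplotlib 3.10.9.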

Additional observations from a re-analysis of the deposited data

Results flagged for a closer look

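Hpca in sham 1, at 2168 CPM, lay far from the other 4 sham rats, at 1538 to 1701 CPM (Dixon ratio 0.74, against a critical value of 0.71 for 5 samples). It was the single such value in 24 groups of 5 checked, where chance gives about 1.2. Sham 1 was also the highest sham rat in Hpcal1, at 40.9 CPM, and the lowest of all rats in the summed dentate granule markers, at 48.5 CPM. Whether these go together was not tested.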

How the results depend on the processing

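Hpcal1 was lower in TBI in all 23 alternatives, which refit the same libraries by which it was chosen, so this is a description. Its log2 change moved beyond the spread between rats only with total count scaling (-0.027), and without single rats it ran from -0.60 to -0.38. Because Hpcal1 was chosen by this contrast, nothing is read from how many sensors had an unadjusted p under 0.05. With all rats there were 2 (Hpcal1 and Ncald). There was 1 with either exact test of edgeR, with no filter, with the ribosomal RNA share as a covariate, without the sham rats rich in ribosomal RNA and with total counts outside ribosomal RNA, 0 with total count scaling, and 1 to 3 without single rats (3 without sham 1). Ncald had an unadjusted p under 0.05 in 9 of the 23 alternatives and reversed to 0.36 with total count scaling. For the partner list the count of 1 became 0 with total count scaling, the covariate, without the ribosomal RNA-rich sham rats and with total counts outside ribosomal RNA, 2 without both rats numbered 3, and 0 to 2 without single rats. For the family relatives the count of 0 became 1 with the covariate, without the ribosomal RNA-rich sham rats and without both rats numbered 3, and 0 to 1 without single rats. For other EF-hand genes the count of 1 became 2 with the exact test without robust estimation, with DESeq2 and with total count scaling. It became 3 with total counts outside ribosomal RNA, and was 1 to 3 without single rats. With total count scaling the genes were Cabp7 and Efhd2, and with total counts outside ribosomal RNA they were Cabp7, Necab2 and Efhd2. All of these were higher in TBI. Necab1 was then not under 0.05 (unadjusted p = 0.772 and 0.187, edgeR). Without both rats numbered 3 the count stayed 1, but the gene was Pvalb in place of Necab1 (unadjusted p = 0.0585, edgeR). Pvalb then had a log2 change of -0.64 and an adjusted edgeR p of 0.0456. Total count scaling moved the median of all rows to 0.50 and its variant outside ribosomal RNA moved it to 0.14, the share of lower genes among rows with an unadjusted p under 0.05 falling from 38.0% to 0.686% and 3.42%. The cause of these shifts was not tested. The adjusted p of the other 5 sensors stayed above 0.05 in all alternatives, the lowest being 0.215, for Ncald without both rats numbered 3, a setting in which 319 of all rows came under 0.05. The scaling outside ribosomal RNA and the removal of both rats numbered 3 were chosen after seeing the data. An order of the sensors by level was not run, because transcript lengths were not used here. No paired analysis was possible because the rat numbers do not pair rats across the groups.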
